A study of Mus musculus with 4 samples.

Results

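The regions described here carried an acetylated histone H4 peak in both lipopolysaccharide (LPS)-treated libraries and in neither untreated library of mouse macrophages. Peaks of the 4 deposited lists that overlapped or touched were merged, which gave 62481 regions. Of these, 4101 (6.56%) met the rule and are called the gained regions below. They were chosen by the presence and absence of peaks in all 4 lists, so their calls, widths and scores are descriptions and were not tested.

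Acetylation of lysines in the tail of histone H4 neutralises their charge, loosens chromatin and marks active promoters and enhancers. In resting macrophages many enhancers of inflammatory genes are already marked, while others acquire histone marks only after a stimulus such as LPS, which acts through Toll-like receptor 4. HDAC3, the enzyme deleted here, removes acetyl groups from histones as the catalytic part of the NCoR and SMRT corepressor complexes. The title of the series names its subject, the need for HDAC3 in the inflammatory gene programme. Regions gained with or without HDAC3 are the new calls with LPS that both genotypes shared.

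The cells were primary bone marrow-derived macrophages of the C57BL/6 strain, taken on day 7 of differentiation in L929-conditioned medium. The groups were HDAC3 +/- cells, which the submitters call wild type (wt), and HDAC3 -/- cells (HDAC3 KO), each untreated or given 100 ng/ml LPS for 4 h. The wt cells therefore carried 1 intact HDAC3 allele, and the way in which HDAC3 was deleted is not given in the sources used here. Each group had 1 library, so no difference could be set against a spread between replicates, and no test between conditions was run. The lists held 39550 to 48706 peaks each, and read depth was unknown. Peaks covered 50.4 Mb in LPS-treated HDAC3 KO and 37.4 Mb in LPS-treated wt. They covered 35.4 Mb in untreated wt and 36.4 Mb in untreated HDAC3 KO. Comparisons of covered length between lists were not adjusted for these totals. The gene table used here is on another genome build than the peak lists (mm9), so no gene or sequence is attached to a region, and neither the Hdac3 locus nor macrophage marker genes could be looked up as a check of the labels.

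The gained regions were a small part of what the LPS-treated libraries held in common. A peak in both LPS lists was found in 25056 merged regions. Of these, 17827 also had a peak in both untreated lists and are called constitutive below, 2156 had one in untreated wt only and 972 in untreated HDAC3 KO only. The 4101 gained regions took up 4644 peaks of LPS-treated wt (11.7% of that list) and 4471 of LPS-treated HDAC3 KO (9.81%). As background, 16.2% of all merged regions were called with LPS but not without it in wt, and 26.4% in HDAC3 KO. The rule used these calls, so nothing is read from the comparison.

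The gained regions were compact. Their median merged width was 918 bp (interval 900.0 to 937 bp), with 5% below 433 bp and 5% above 2362 bp. A merged width grows with the number of lists that are joined, so widths are better compared within a list. In LPS-treated wt the gained regions covered a median of 657 bp, against 1222 bp for constitutive regions and 434 bp for regions called in that list alone. In LPS-treated HDAC3 KO the values were 783, 1484 and 540.5 bp. The gained regions thus lay between both classes in each library. Regions lost in both genotypes, the mirror pattern with peaks in the untreated lists only, covered 555 bp in untreated wt and 604.5 bp in untreated HDAC3 KO.

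**Figure D1:**
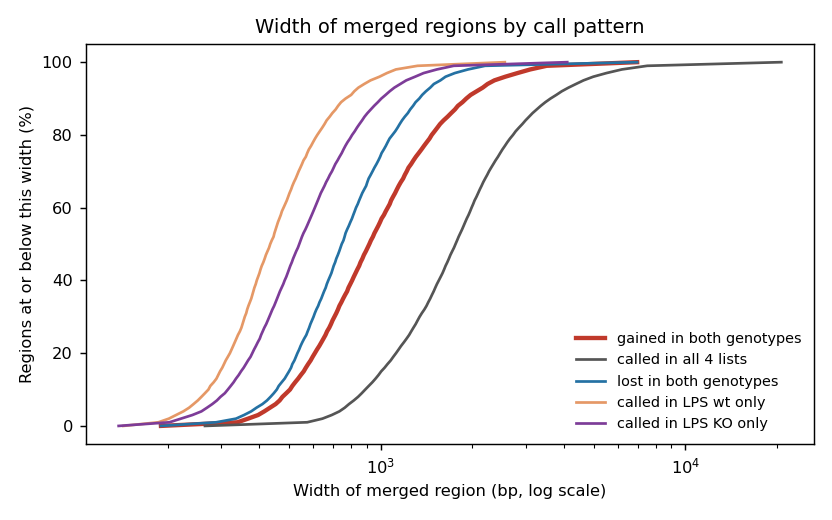
Cumulative share of merged regions (y axis, %) at or below a given width (x axis, bp, log scale), 1 line per call pattern. The gained regions (thick red line) have a median of 918 bp and lie to the right of the 2 single-list patterns and to the left of the regions called in all 4 lists.

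A score is the authors' own value for a peak, is at least 50 in each list and depends on depth and input, so it is read here mainly as a percentile within its own list. Scores of the gained regions were modest. The median score was 109 in LPS-treated wt (percentile 41.2) and 123 in LPS-treated HDAC3 KO (percentile 44.1). Constitutive regions had medians at percentiles 71.5 and 75.5. Regions called in 1 LPS list alone had medians at percentile 20.1 (wt) and 22.0 (HDAC3 KO). A total of 983 gained regions (24.0%, interval 22.7 to 25.3%) ranked above the median of both lists and 1790 (43.6%) at or below the median of both. In the top 10% of each list there were 133 gained regions for wt and 145 for HDAC3 KO, and 58 were in both. A score of at least 500 in both lists was reached by 146 (3.56%), while 997 (24.3%) were under 100 in both. These shares were not computed over all regions with a peak in both LPS lists. The counts are therefore not read as a trait of the gained regions.

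Width and score went together, and most of the strong members were broad. Of the 146 regions scored at least 500 in both lists, 140 were among the 1025 widest members, which had a median width of 1774 bp. Among the 1026 narrowest, with a median of 528 bp, the count was 0. Median scores in these 2 sets were 250 and 77.2 in LPS-treated wt and 307 and 76.6 in LPS-treated HDAC3 KO. Covered length and score are read from the same peaks, and their Spearman rho across the 4101 regions was 0.73 in wt and 0.72 in HDAC3 KO.

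A set of 10 regions was taken as the strongest, those with the highest percentile in the list where they ranked lower. The region at chromosome 6, 38291386 to 38294273, stood at percentiles 99.9 in wt and 99.0 in HDAC3 KO, was 2888 bp wide and had another gained region 55 bp away. The region at chromosome 7, 81836527 to 81843475, was the widest of all gained regions at 6949 bp, with scores of 3100 in wt and 2702 in HDAC3 KO. A score of 3100 was shared by 288 peaks of LPS-treated wt and 370 of LPS-treated HDAC3 KO, so members at that value are tied and not ranked among themselves. The region was 1 peak in wt and 3 peaks in HDAC3 KO, which covered 6868 and 6856 bp. These regions were therefore called over nearly the same length in the 2 genotypes.

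At chromosome 5, the region 92778116 to 92781621 scored 2121 in wt and 2668 in HDAC3 KO and lay 231 bp from a constitutive region. The region at chromosome 12, 27146106 to 27152803, scored 2093 and 3100 and was split into 5 peaks in wt, while a single peak of 6698 bp spanned it in HDAC3 KO. Both lay within 1 kb of an untreated peak. In the 25 kb on each side of the chromosome 5 region, wt peaks covered 4.26 kb before and 21.4 kb after LPS, and HDAC3 KO peaks 3.31 kb before and 19.2 kb after. Around the chromosome 12 region the values were 3.76 and 15.0 kb (wt) and 2.17 and 17.1 kb (HDAC3 KO). Both members thus stood in surroundings where much more was called with LPS.

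Other strong members stood far from untreated peaks. The region at chromosome 18, 75053569 to 75057832, scored 3100 in wt and 2006 in HDAC3 KO, with the nearest untreated peak of either genotype 100.3 kb away. Its flanks of 25 kb held no untreated peak, while LPS-treated peaks covered 18.2 kb in wt and 11.9 kb in HDAC3 KO. At chromosome 10, 75171472 to 75174533, the scores were 3100 and 1868, and no list had a peak in the 25 kb on either side. This second region was the most solitary of the 10, with the next gained region 115 kb away. The first was called in company and the second alone, at percentiles of 97.99 and 97.7 in HDAC3 KO and tied at 3100 in wt.

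The remaining 4 of the 10 were at chromosome 10, 57854266 to 57857714 (scores 2071 in wt and 2124 in HDAC3 KO), chromosome 8, 112204791 to 112208338 (2007 and 2579), chromosome 16, 84602158 to 84605498 (2126 and 1977), and chromosome 16, 10813101 to 10815966 (3100 and 1848). Across all 10, covered length in HDAC3 KO was 0.77 to 1.29 times that in wt. The score was the higher one in HDAC3 KO at 4 of the 10 and in wt at 6.

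The rule asks for a peak of both LPS libraries in 1 merged region, which largely fixes how close their peaks lie. In 3405 gained regions (83.0%) each list had a single peak, and the centres of the wt and HDAC3 KO spans were a median of 95 bp apart. The overlap of both spans took up a median of 68.3% of their joint length, against 78.1% in constitutive regions. HDAC3 KO covered more than wt in 2559 gained regions (62.4%, interval 60.9 to 63.9%), with a median ratio of 1.12 (1.11 to 1.14). In constitutive regions it covered more in 72.5% (71.8 to 73.1%), with a median ratio of 1.15 (1.14 to 1.15). The greater length in HDAC3 KO was thus not larger at gained than at constitutive regions.

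Single regions departed from this more often. Covered length was at least 1.5-fold higher in HDAC3 KO in 1095 gained regions (26.7%), and the background over the 25056 regions with a peak in both LPS lists was 23.1%. It was at least 1.5-fold higher in wt in 409 (9.97%), against a background of 5.62%. Score ranks also differed more between the genotypes than at constitutive regions. Spearman's rho between the wt and HDAC3 KO scores was 0.42 across the 4101 gained and 0.77 across the 17827 constitutive regions. These are descriptions across regions of 2 libraries. Gained regions had lower median scores than constitutive regions, and the part this plays was not tested.

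**Figure D2:**
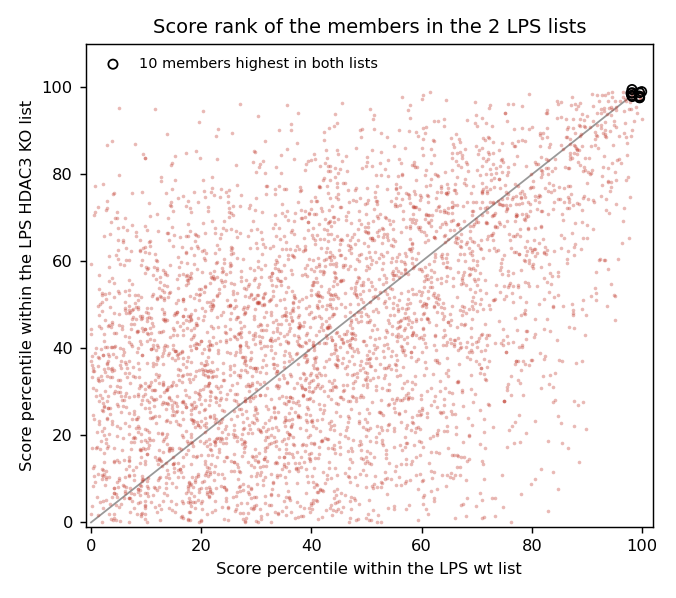
Score percentile of each of the 4101 gained regions in the LPS wt list (x axis) and in the LPS HDAC3 KO list (y axis), 1 point per region, with the line of equal rank. Points scatter widely around the line at low and middle ranks, and the 10 regions highest in both lists (open circles) lie above percentile 97 in each.

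Members with the largest difference in rank were called in both genotypes at very unequal strength. At chromosome 11, 100589891 to 100595873, the score was 53.9 in LPS-treated wt (percentile 5.02) and 1271 in LPS-treated HDAC3 KO (percentile 95.2). The 2 wt peaks there covered 834 bp, and the single HDAC3 KO peak covered 5983 bp. A region at chromosome 19, 53507192 to 53509572, scored 53.2 in wt and 699 in HDAC3 KO, and the one at chromosome 14, 61143203 to 61145445, scored 52.5 and 662. All 3 only just reached the wt list, whose lowest score is 50.

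In the opposite direction, the region at chromosome 9, 57764865 to 57766230, scored 524 in wt and 52.0 in HDAC3 KO. At chromosome 6, 28782012 to 28783847, the scores were 581 and 55.9, and at chromosome 7, 120195624 to 120197309, they were 379 and 50.2. A difference of more than 50 percentile points was found in 146 gained regions with the higher rank in HDAC3 KO and in 100 with the higher rank in wt. The rank differed by at most 10 points in 1289 (31.4%). A region can therefore meet the rule with a call near the lower end of 1 list. Shares of such rank differences were not computed over other regions, so these counts are not read as a trait of the gained regions.

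Width showed the same inequality. Of the 5 widest gained regions, the chromosome 7 and chromosome 12 regions given above were broad in both genotypes. The region at chromosome 18, 75033786 to 75040375, covered 6238 bp in wt and 4488 bp in HDAC3 KO, in 4 peaks each. The chromosome 11 region above and the one at chromosome 17, 45905614 to 45911508, were much broader in HDAC3 KO than in wt. At the latter, LPS-treated wt covered 1155 bp and LPS-treated HDAC3 KO 5895 bp. Each of these 2 had a constitutive region within 300 bp, at 106 and 274 bp.

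Absence of a listed peak in the untreated libraries is the threshold of the rule. Just inside, the region at chromosome 8, 129381984 to 129384207, lay 2 bp from an untreated peak and scored 166 in wt and 338 in HDAC3 KO with LPS. The regions at chromosome 12, 56443500 to 56444574, and chromosome 1, 170293016 to 170293804, lay 3 and 4 bp from one, with LPS scores of 233 and 117 in wt and 373 and 275 in HDAC3 KO. Just outside, the region at chromosome 15, 76080574 to 76082359, was kept out by an untreated HDAC3 KO peak of 292 bp scored 50.0, with LPS scores of 120.1 in wt and 248 in HDAC3 KO. Those at chromosome 16, 58506911 to 58508433, and chromosome 13, 52705165 to 52705907, were kept out by untreated wt peaks of 233 and 416 bp scored 50.0 and 50.1, with LPS scores of 339 and 82.8 in wt and 233 and 88.1 in HDAC3 KO. The wt scores of both sets of 3 overlapped, and the HDAC3 KO scores just outside were all below those just inside.

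Some gained regions lay close to untreated peaks, and the same distances were not computed for other patterns. The nearest untreated peak of either genotype was a median of 4724 bp away (interval 4389 to 5158 bp). It was within 500 bp of 722 gained regions (17.6%), within 1 kb of 1066 (25.99%) and over 25 kb away from 778 (18.97%). Scores did not fall with this distance. The members with an untreated peak within 1 kb had a median score of 94.1 in LPS-treated wt (interval 89.7 to 99.6), against 128 (119 to 139) for those over 25 kb from one. In LPS-treated HDAC3 KO both medians were similar, at 116 (109 to 123) and 122 (114 to 135). The ratio of HDAC3 KO to wt covered length was 1.19 (1.16 to 1.22) next to untreated peaks and 1.06 (1.02 to 1.09) over 25 kb from them.

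Gained regions were spaced from constitutive regions much as lost regions were. A constitutive region lay a median of 13.5 kb from a gained region, 12.1 kb from a region lost in both genotypes and 13.4 kb from a region called in LPS-treated HDAC3 KO alone. Regions called in LPS-treated wt alone were farther, at 21.4 kb, and constitutive regions were 8.70 kb from each other. Within 5 kb of a constitutive region stood 1362 gained regions (33.2%, interval 31.8 to 34.7%) and 999 lost regions (32.9%, 31.2 to 34.6%). The intervals of both shares overlapped. With no untreated peak allowed within 5 kb, the share of gained regions fell to 1.64%, as that setting removes most members next to constitutive regions, and with regions joined across gaps of up to 500 bp it was 20.6%. A further 513 gained regions (12.5%) were more than 100 kb from any constitutive region. Within 100 kb of one stood 87.5% of gained and 89.8% of lost regions. The share was 87.5% for regions called in LPS-treated HDAC3 KO alone and 82.0% for those of LPS-treated wt alone. Remote positions were therefore not particular to the gained regions.

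Remote members were somewhat narrower but not weaker in wt. Those over 100 kb from a constitutive region had a median width of 797 bp (752 to 839), against 946.5 bp (915 to 982) for those within 5 kb. Median scores of both sets were 114 and 104 in LPS-treated wt, and 112 and 124 in LPS-treated HDAC3 KO. Among members at or above the median score of both LPS lists, the most remote were a pair at chromosome 16, 6841539 to 6842253 and 6827987 to 6828680, 1408 and 1394 kb from a constitutive region. The first scored 209 in wt and 172 in HDAC3 KO, and the second 195 and 371. The next was chromosome 17, 68521569 to 68523174 (1006 kb, scores 363 and 333), with no peak of any list in the 25 kb on either side. A second pair followed at chromosome 12, 120469417 to 120470121 and 120453042 to 120454199, at 929 and 913 kb.

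Gained regions stood closer to each other than lost regions did. Another gained region lay within 10 kb of 1823 members (44.5%, interval 42.9 to 46.0%), whereas 876 of the 3036 lost regions (28.9%, 27.2 to 30.5%) had another lost region that near. The median gap to the nearest region of the same kind was 15.9 kb for gained and 52.5 kb for lost regions. Among regions called in LPS-treated HDAC3 KO alone, 56.1% had another of their kind within 10 kb, with a median gap of 5.76 kb. For those called in LPS-treated wt alone the values were 40.9% and 27.8 kb. Close spacing was therefore not particular to the gained regions. With regions joined across gaps of up to 500 bp, which fuses pieces of 1 broader stretch, the shares were 19.9% for gained and 16.2% for lost regions, an alternative for lost regions added after the data were seen. The comparison also depends on how many regions a set holds. The next region along the chromosome, of any pattern, was therefore counted too: 20.1% of the neighbours of gained regions were themselves gained, 3.06 times their 6.56% share of all regions. The ratio was 2.59 for lost regions, 3.18 and 2.28 for regions called in LPS-treated wt or HDAC3 KO alone, and 1.25 for constitutive regions. After the 500 bp join it was 2.44 for gained and 2.00 for lost regions. By this measure the value of gained regions was near that of regions called in LPS-treated wt alone and above those of lost regions and of regions called in LPS-treated HDAC3 KO alone.

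**Figure D3:**
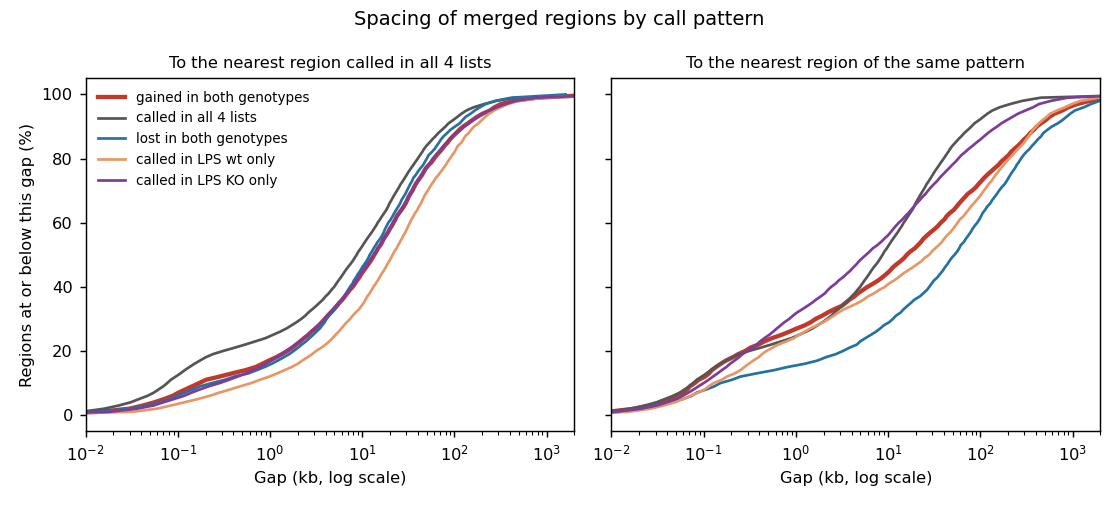
Cumulative share of regions (y axis, %) at or below a given gap (x axis, kb, log scale) to the nearest region called in all 4 lists (left) and to the nearest region of the same pattern (right), 1 line per call pattern. On the left the gained regions (thick red line) follow the lost regions closely, and on the right they lie above them, with 44.5 against 28.9% at 10 kb.

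The neighbours of gained regions were mostly called with LPS alone. Of 8202 neighbouring regions, 54.8% had peaks in LPS lists only, a pattern of 28.6% of all regions. Neighbours with peaks in untreated lists only made up 9.57%, against 24.9% of all regions, and constitutive neighbours 21.0% against 28.5%. Regions lost in both genotypes were 0.28 times as frequent next to gained regions as among all regions. Gains and losses were thus seldom next to each other in these lists.

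Linking members at most 10 kb apart gave 2278 isolated regions and 697 clusters of 2 to 11, of which 42 held at least 5. With the same linking, the largest cluster held 10 regions called in LPS-treated wt alone and 16 called in LPS-treated HDAC3 KO alone. It held 15 for constitutive and 6 for lost regions. Clusters of this size were therefore not particular to the gained regions. Clustered members scored higher. The median score in LPS-treated wt was 101.0 (96.9 to 105) for isolated members, 119.7 (115.1 to 127) in clusters of 2 to 4 and 137 (116 to 153) in clusters of 5 or more. In LPS-treated HDAC3 KO the medians were 112 (108 to 116), 136 (131 to 142) and 170.0 (142 to 199.99). A constitutive region lay within 5 kb of 22.8% (17.9 to 28.4%) of members in the largest clusters and of 33.9% (32.0 to 35.9%) of isolated members.

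The largest clusters were stretches of chromatin with few peaks before LPS. At chromosome 16, 84602158 to 84628486, 11 gained regions filled 14.2 kb of a span of 26.3 kb. Peaks covered 15.2 kb of that span in LPS-treated wt and 17.0 kb in LPS-treated HDAC3 KO, against 0.997 kb in untreated wt and none in untreated HDAC3 KO. Scores of its members lay between 63.6 and 2126 in LPS-treated wt, and between 74.3 and 1977 in LPS-treated HDAC3 KO. One strong region, named above, opened the cluster, and the medians over all 11 members were 167 in wt and 127 in HDAC3 KO.

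A second cluster of 11 lay at chromosome 5, 101056684 to 101101084, over 44.4 kb. Here LPS-treated wt covered more than LPS-treated HDAC3 KO, 22.0 against 17.9 kb, and 6 further regions inside the span were called in LPS-treated wt alone. It held 1 constitutive region and 3.34 kb of untreated wt peaks. A further 3 clusters had 9 members. In the one at chromosome 1, 175961378 to 175983118, no untreated library had a peak within 90.6 kb, and LPS-treated peaks covered 9.20 kb in wt and 12.7 kb in HDAC3 KO. Its members had median scores of 274 in wt and 271 in HDAC3 KO.

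The cluster at chromosome 4, 63743878 to 63760288, was covered for 8.59 kb in LPS-treated wt, 6.52 kb in LPS-treated HDAC3 KO and 0.485 kb in untreated HDAC3 KO. That at chromosome 16, 65195548 to 65215596, was weaker in wt, with 4.27 kb covered and a median score of 66.1, against 7.97 kb and 86.8 in HDAC3 KO. The last 2 clusters stood 182 and 235 kb from the nearest constitutive region, and the chromosome 1 cluster 288 kb. In each of the 5 spans the LPS libraries together had many peaks and the untreated libraries between 0 and 3 each. The spans were chosen by their number of members, so nothing is read from this contrast.

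**Figure D4:**
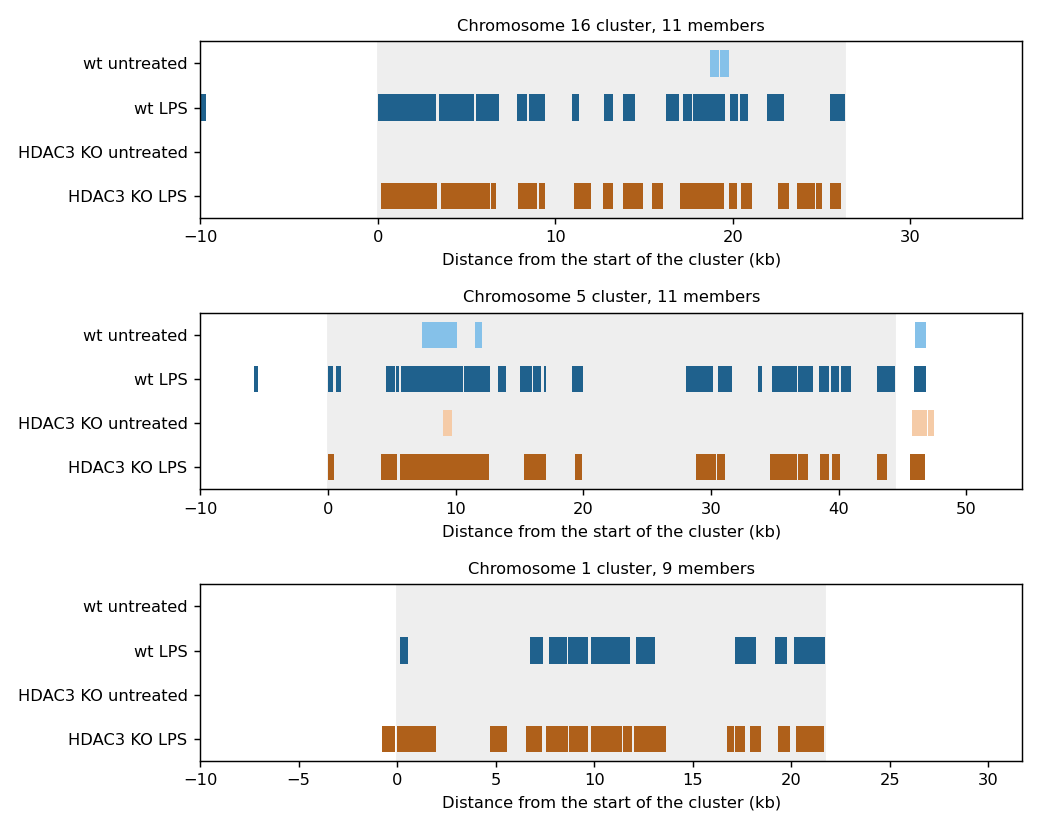
Deposited peaks of the 4 libraries (rows) in 3 of the 5 largest clusters of gained regions and 10 kb on each side, by distance from the start of the cluster (x axis, kb); bars are peaks and the grey area is the cluster. LPS-treated peaks of wt and HDAC3 KO fill largely the same parts of each span, and untreated libraries hold at most 3 peaks inside a span.

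Acetylation calls around the gained regions went the same way, most of all where other gained regions stood near. In the 25 kb on each side, the median length covered by wt peaks was 1.57 kb before and 3.40 kb after LPS. For HDAC3 KO peaks it was 1.29 and 4.37 kb. Around all merged regions the medians were 2.01 and 1.99 kb (wt) and 1.92 and 2.93 kb (HDAC3 KO). This covered length was higher with LPS in both genotypes around 2959 gained regions (72.2%, interval 70.8 to 73.5%), against 37.7% of all merged regions, and lower in both around 172 (4.19%), against 21.6%. It was higher in both around 54.5% of regions called in LPS-treated wt alone and 52.2% of those called in LPS-treated HDAC3 KO alone. Where no other gained region lay within 25 kb, it was higher in both around 794 of 1832 (43.3%, 41.1 to 45.6%). There the medians before and after LPS were 1.46 and 1.76 kb (wt) and 1.33 and 2.34 kb (HDAC3 KO). The surroundings of such solitary members were thus nearer to those of regions in general.

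Constitutive regions are not members, and those near a member were called over a greater length with LPS. The selection was not independent of them. An LPS peak that touched an untreated peak was merged with it and could not form a member. Within 500 bp of a constitutive region lay 565 gained regions (13.8%), and the values below were not recomputed with the 500 bp join. In the 1413 constitutive regions within 5 kb of a gained region, the median covered length was 1160 bp before and 1677 bp after LPS in wt, and 1197 bp before and 1968 bp after in HDAC3 KO. The median ratio of LPS-treated to untreated was 1.396 (interval 1.36 to 1.45) in wt and 1.47 (1.42 to 1.52) in HDAC3 KO. For the 10092 constitutive regions more than 100 kb from a gained region it was 1.01 (1.00 to 1.02) and 1.10 (1.09 to 1.10), with untreated medians of 1199 and 1257 bp that were close to those of the near set. The ratio declined step by step over the distances between, in both genotypes.

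Counts gave the same picture. Covered length was at least 1.5-fold higher with LPS in both genotypes in 445 of the 1413 near constitutive regions (31.5%, interval 29.1 to 34.0%), against a background of 10.0% of all constitutive regions. It was at least 1.5-fold lower in both in 6 (0.42%), against 2.53%. Score ranks moved likewise. The percentile of near constitutive regions was a median of 5.38 points higher with LPS in wt and 11.8 points higher in HDAC3 KO. At 5 to 25 kb the median difference was -0.82 points in wt and 3.56 points in HDAC3 KO. For those over 100 kb away it was -5.94 and -2.07 points, and over all constitutive regions -4.21 and -0.45 points. Near regions lost in both genotypes the order was the opposite, with ratios of 0.92 (0.89 to 0.94) in wt and 1.02 (1.01 to 1.04) in HDAC3 KO within 5 kb. Regions called with LPS in 1 genotype alone showed the same gradient: within 5 kb of those of wt the ratios were 1.25 and 1.30, with 23.7% of constitutive regions at least 1.5-fold higher in both genotypes, and within 5 kb of those of HDAC3 KO they were 1.16 and 1.34, with 19.3%. The gradient was therefore not particular to the gained regions. All of these values come from the same 4 libraries that defined the gained regions, and neighbouring regions are not independent.

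**Figure D5:**
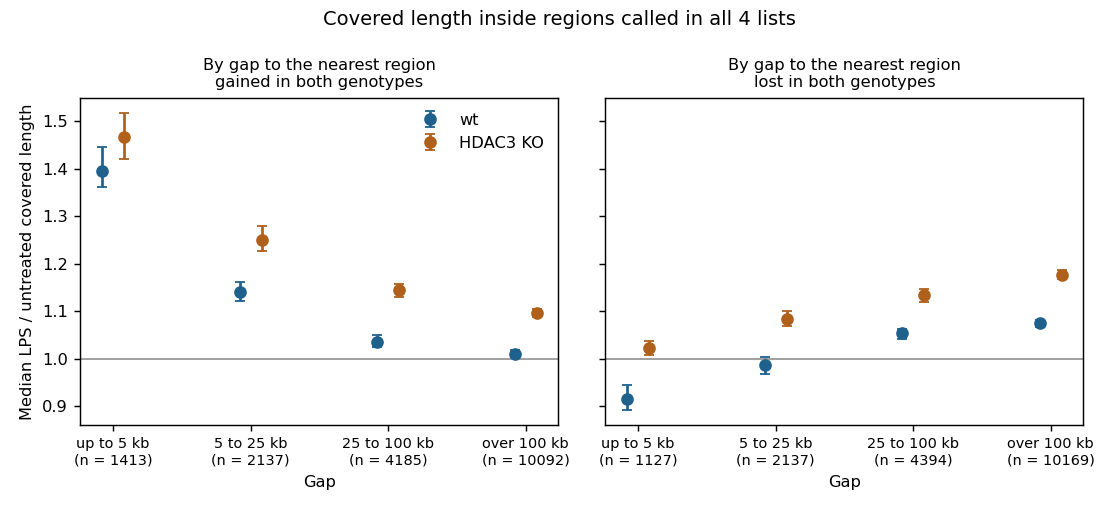
Median ratio of LPS-treated to untreated covered length (y axis) inside regions called in all 4 lists, by gap to the nearest region gained (left) or lost (right) in both genotypes (x axis); blue is wt, orange HDAC3 KO, and bars are 95% intervals of the median for counting error. The ratio is highest within 5 kb of a gained region, at 1.396 and 1.47, and lowest within 5 kb of a lost region, at 0.92 and 1.02. Regions called with LPS in 1 genotype alone are not drawn.

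The 5 constitutive regions near members that expanded most were picked for these values. At chromosome 13, 75922945 to 75926056, covered length before and after LPS was 131 and 2145 bp (wt) and 265 and 3015 bp (HDAC3 KO), with scores of 59.2 and 358 (wt) and 61.0 and 1055 (HDAC3 KO). At chromosome 5, 92796182 to 92801083, 2 bp from a gained region, it was 691 and 4861 bp (wt) and 510 and 4723 bp (HDAC3 KO), with untreated scores of 82.4 and 61.0. At chromosome 7, 81829143 to 81831709, it was 194 and 2466 bp (wt) and 253 and 1813 bp (HDAC3 KO), with untreated scores of 52.3 and 53.9. The other two, at chromosome 8, 47420518 to 47423623, and chromosome 11, 86438718 to 86442966, had untreated scores of 120.5 and 111 in wt and 84.6 and 68.5 in HDAC3 KO. The untreated scores of the 5 regions thus ran from close to the lowest listed value to about the median of the untreated wt list, which was 116.

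The gained regions were spread over all autosomes and the X chromosome. Their share of the merged regions of a chromosome ran from 4.67% on chromosome 9 (156 of 3339, interval 3.98 to 5.44%) to 8.89% on chromosome 16 (209 of 2352, 7.77 to 10.1%). On the X chromosome it was 7.19% (103 of 1433, 5.90 to 8.65%). Chromosome 16 also held 2 of the 5 largest clusters, with 20 of its 209 gained regions. Another 3 members lay on unplaced sequences.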

How the data were processed

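Chromatin immunoprecipitation with an antibody against acetylated histone H4 was sequenced in 4 libraries. Bowtie and mm9 are named in the submitters' processing notes. MACS called the peaks of each library against an input, per the file headers. Versions, settings and the pairing of inputs are not given in the sources used here. The authors deposited a start, an end and a score per peak, and the scale of the score is not stated.

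Peaks were merged across lists at a gap of 0 bp, which matched bedtools 2.31.1 for all 62481 regions. Gaps run from edge to edge, a region's score in a list is that of its highest peak, and covered length is the sum of its peaks. Percentiles are ranks within a list. Coordinates are counted from 1. Intervals are 95%, exact (Clopper-Pearson, scipy 1.17.1) for shares and from binomial order statistics for medians. They cover counting error only, and neighbouring regions are not independent. Scripts ran in Python 3.11.15 with pandas 2.3.3, numpy 2.4.6 and matplotlib 3.10.9.

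Named were the 10 members with the highest lower percentile, the 5 widest, the 5 clusters with most members, the 5 farthest from constitutive regions at or above both median scores, the 3 on each side of the rule's threshold and the 3 with the largest rank difference each way. The members and lists were chosen with earlier results of these data known. Patterns, distances and clusters were tested on simulated lists: 15 of 15 pattern counts over 62481 simulated regions were recovered. Gene lists, marker genes, motifs and sequences need mm9 and were not run.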

Additional observations from a re-analysis of the deposited data

Results flagged for a closer look

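The median LPS change in covered length had opposite signs in the 2 genotypes in constitutive regions close to regions lost in both genotypes. Within 5 kb of a lost region the median change was -100.0 bp in wt (interval -123 to -66 bp) and 31 bp in HDAC3 KO (9 to 58 bp). At 5 to 25 kb it was -15 bp in wt, with an interval of -34 to 4 bp that includes 0, and 109 bp in HDAC3 KO (90 to 130 bp), so a fall in wt is not shown there. Over all constitutive regions the median change was 55 bp in wt and 171 bp in HDAC3 KO. With 1 library per group the difference between the genotypes was not tested. For covered length, no such difference in sign was found at any distance from the gained regions. The median change in score percentile did differ in sign at 5 to 25 kb from them, at -0.82 points in wt and 3.56 points in HDAC3 KO. It also did so at 5 to 25 kb from regions called in LPS-treated wt alone (-1.76 and 0.93 points) or HDAC3 KO alone (-4.07 and 1.16 points). Over 100 kb from lost regions it was -3.12 and 0.70 points. This sign difference was therefore not particular to the gained regions.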

How the results depend on the processing

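No paired analysis was possible because each group had 1 library, and no library could be left out. Limits are the unknown depth, the absence of replicates and the reliance on calls: a region without a listed peak is not shown to lack acetylation. Across 68 recomputed values, 17 stayed within the counting interval of the reported one (or within 1.5 times, for counts) and 51 moved; the ratio of HDAC3 KO to wt covered length stayed above 1 in all 8 settings tried for it. With autosomes only, all 8 results stayed close. The cause of the other shifts was not tested, apart from those built into a setting, such as fewer peaks or a wider join.

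The number of gained regions was 2468 with regions joined across gaps of up to 500 bp, 2345 when peaks under the median score of their list were dropped, 2409 when a list was cut to its top 20000 peaks, 2011 with no untreated peak within 5 kb and 629 where both LPS scores were at least 200. The median width was 1362 bp with the 500 bp join, 1515 bp above median scores, 1588 bp with the top 20000, 1281 bp for peaks scored at least 100, 939 bp with no untreated peak within 1 kb and 1702 bp with both scores at least 200. In the same order the median wt score was 115, 307, 328, 225, 117 and 407, and it was 119 with no untreated peak within 5 kb. The median HDAC3 KO score was 344 above median scores, 374 with the top 20000, 250.0 for peaks scored at least 100 and 402 with both scores at least 200.

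The median ratio of covered lengths was 1.09 above median scores, 1.10 with the top 20000, 1.09 for peaks scored at least 100, 1.10 and 1.09 with no untreated peak within 1 and 5 kb, and 1.03 with both scores at least 200. The share with another member within 10 kb was 19.9% with the 500 bp join, 34.5% above median scores, 33.8% with the top 20000, 38.5% for peaks scored at least 100, 41.4% with no untreated peak within 5 kb and 21.5% with both scores at least 200. Within 5 and 25 kb it was 38.5 and 55.3%.

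The median distance to a constitutive region was 19894 bp with the 500 bp join, 24870 bp above median scores, 27455 bp with the top 20000, 21407 bp for peaks scored at least 100, and 19136 and 31711 bp with no untreated peak within 1 and 5 kb. The share within 5 kb of one was 20.6, 23.6, 21.8, 26.3, 22.4 and 1.64% in that order, and 36.1% with both scores at least 200. Within 1 and 25 kb it was 17.2 and 63.0%. The 500 bp join was also applied, after seeing the data, to 3 further values: the share of lost regions with another within 10 kb was then 16.2%, and the neighbour ratio was 2.44 for gained and 2.00 for lost regions.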
